A study of Homo sapiens with 8 samples.

Results

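DLL4 and CDCA7 are 2 genes that the study singled out in its EZH2 ChIP-seq maps, and the EZH2 peaks lying at each of them are described here. A peak was taken as a member when it shared at least 1 base with an hg18 interval around the gene, on chromosome 15 from 38998000 to 39025000 for DLL4, whose start lies near 39008830, and on chromosome 2 from 173917000 to 173945000 for CDCA7, whose start lies near 173927800. Of 19721 peaks in 4 lists, 8 met this rule, 5 at DLL4 and 3 at CDCA7. The intervals are positions only and used no measured value. The study first named both genes as repressed in NTKO cells, with more H3K27me3 there, and as known EZH2 targets. It then showed their EZH2 tracks in the same cell lines, so the genes were not picked blind to a difference between these lines. A difference between the cell lines at either gene is therefore not independent evidence of what EZH2 does elsewhere.

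Both cell lines derive from KMS11, a human multiple myeloma line in which the translocation t(4;14) places MMSET (NSD2, WHSC1), a methyltransferase of H3K36, under immunoglobulin enhancers. NTKO cells have lost the wild-type allele of MMSET, and the rearranged one keeps MMSET high. In TKO cells the rearranged allele was inactivated by homologous recombination and the remaining wild-type copy keeps MMSET low. Both lines thus carry 1 inactivated allele. The labels name no treatment, and chromatin of both was precipitated with the same EZH2 antibody, with 2 ChIP samples per line, called run 1 and run 2, and 4 input samples that entered only through the peak calls. Whether each line is a single clone is not given in the sources used here. Peak lists of EZH2 hold no marker of plasma cells, so the cell type was not checked.

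EZH2 is the catalytic subunit of Polycomb Repressive Complex 2, which trimethylates H3K27 and typically sits at CpG-rich promoters of silent developmental genes. DLL4 encodes Delta-like 4, a membrane-bound ligand of Notch receptors that is known from blood vessel sprouting and from T cell commitment in the thymus. CDCA7 encodes a zinc finger protein of dividing cells, a known target of MYC and E2F factors that works with the chromatin remodeler HELLS in maintaining DNA methylation.

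At both genes the main NTKO peaks covered the start of the gene, while the TKO run 2 peaks at DLL4 lay after it. The peak lists of MMSET-high NTKO cells covered more of each interval than those of MMSET-low TKO cells. A DLL4 peak was called in NTKO runs 1 and 2 and in TKO run 2, where it was 2.11-fold lower than in NTKO run 2. A CDCA7 peak was called in NTKO runs 1 and 2, and TKO cells had none in either list. With 2 samples per line these differences could not pass a test. Of 1930 regions with a peak in both NTKO runs, 52.6% had the presence pattern of DLL4 and 28.9% that of CDCA7. TKO run 1 held 651 peaks in all, against 2972 in NTKO run 1.

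The promoter stretches just before the start are shown because Polycomb binding is known to favor CpG-rich sequence. By distance from the start, the main NTKO peaks include them and the TKO run 2 peaks at DLL4 do not. All main summits lie 435 to 566 bases after the start, so the stretches are not the sequence under the summits. The 250 bases before each RefSeq start, on the plus strand of GRCh38.p14 (another build than that of the peaks), read as follows, with every CpG in capitals. They are chr15:40929090-40929339 for DLL4 and chr2:173354622-173354871 for CDCA7.
DLL4: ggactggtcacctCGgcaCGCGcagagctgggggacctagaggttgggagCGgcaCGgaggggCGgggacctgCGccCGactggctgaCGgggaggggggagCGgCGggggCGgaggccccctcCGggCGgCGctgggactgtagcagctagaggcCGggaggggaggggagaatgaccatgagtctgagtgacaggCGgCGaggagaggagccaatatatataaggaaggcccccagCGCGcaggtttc
CDCA7: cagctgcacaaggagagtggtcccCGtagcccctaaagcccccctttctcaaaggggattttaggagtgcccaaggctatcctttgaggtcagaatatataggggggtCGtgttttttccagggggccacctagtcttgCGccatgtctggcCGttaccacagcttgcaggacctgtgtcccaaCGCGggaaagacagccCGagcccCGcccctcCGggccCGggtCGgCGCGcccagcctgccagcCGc

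The DLL4 promoter held 20 CpGs and 70% GC, and the CDCA7 promoter 14 CpGs and 62.8% GC, against medians of 11 CpGs and 58% GC over 35116 RefSeq promoters of the same length. At least 20 CpGs were found in 32.4% of all promoters and at least 14 in 44.8%. Both promoters were thus above the median in CpGs without standing apart, CDCA7 only a little. In DLL4 the CpGs reached both ends of the stretch but were denser in the part farther from the start. In CDCA7 they lay mainly in the part nearest the start. The GC box GGGCGG occurred 3 times in DLL4 and 1 time in CDCA7, counting both strands, and in 42.6% of all promoters. The E2F-type sequence TTTCCCGC occurred 1 time in CDCA7, counting both strands, and in 1.39% of all promoters, and it was not found in DLL4. The run GGGGGG occurred 1 time in DLL4 and 2 times in CDCA7 (17.6% of all promoters), and CGCG 2 times in both (46.4%), with overlapping matches counted, also where one motif overlaps another. CGCG and CACGTG read the same on both strands and were counted once per site. CACGTG (6.34% of all promoters), TTTGGCGC (0.55%) and a CTCF core motif (0.0513%) were in neither stretch. These matches describe the letters only.

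In NTKO run 1, DLL4 had 1 peak, from 39007364 to 39010743, with a height of 166 reads at its summit. In NTKO run 2 the main peak ran from 39007884 to 39011370 with a height of 228 reads, and a low peak of 68 reads lay before it, from 39007010 to 39007705. In TKO run 2 a peak of 108 reads ran from 39008915 to 39009802 and a second of 72 reads from 39009916 to 39010118. Both TKO peaks lay inside the stretch that the main NTKO peaks covered. TKO run 1 had no peak at DLL4, and its nearest peak on the chromosome began 24448 kb after the gene's start. A missing peak means a signal that did not pass the peak caller, not a height of 0.

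At CDCA7, NTKO run 1 had 1 peak, from 173927343 to 173928957, with a height of 93 reads. NTKO run 2 had its main peak from 173927319 to 173929453 with a height of 184 reads, and a short one of 46 reads from 173929736 to 173929874. Neither TKO list had a peak in the interval. The nearest TKO peaks were 343 kb after the start in run 2 and 983 kb after it in run 1. The heights are the study's own summit heights. Its methods state that each ChIP data set was normalized to its input lane, but not whether the deposited heights carry that step or are scaled to library size, so heights of different lists may not share 1 scale.

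**Figure D1:**
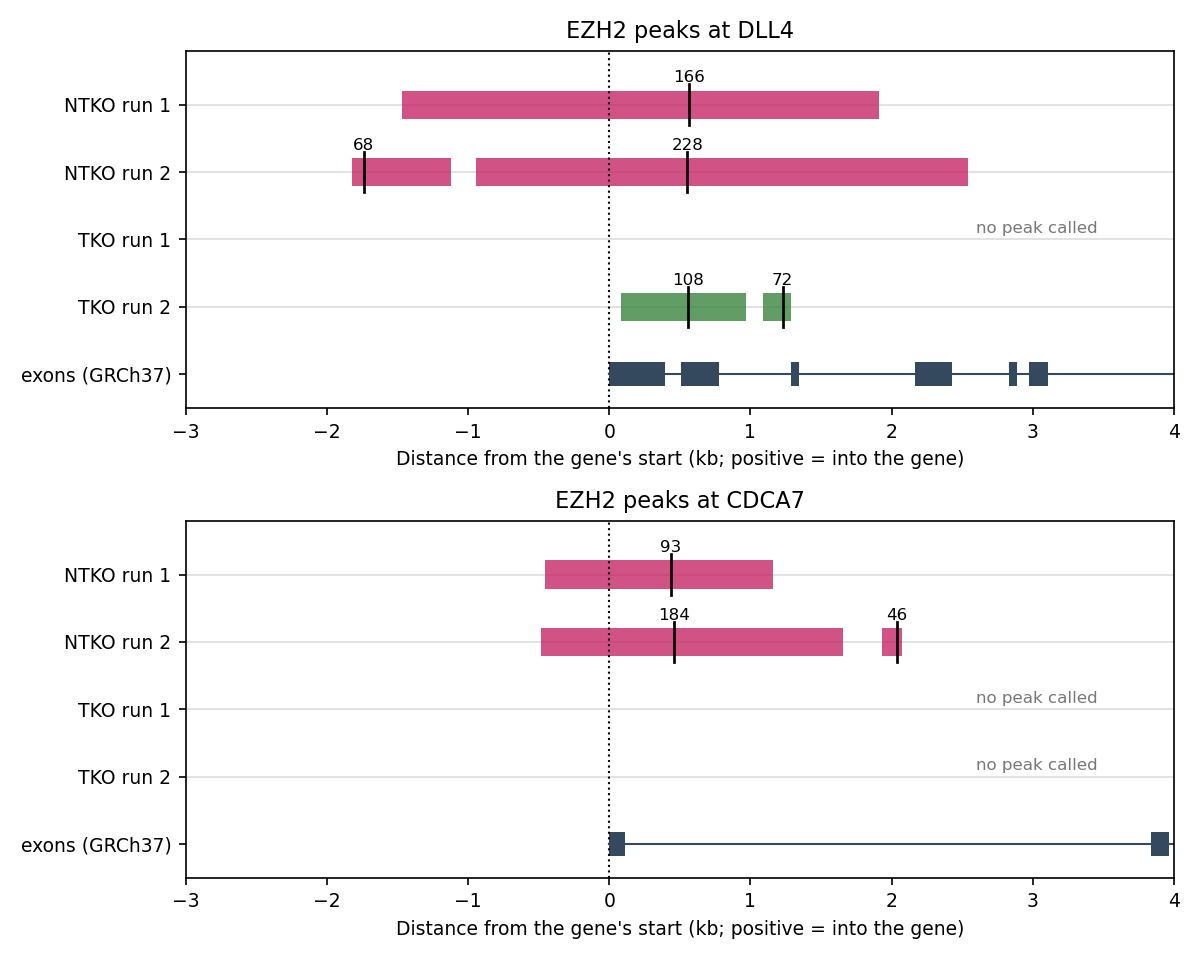
Peaks at DLL4 (top) and CDCA7 (bottom) in each of the 4 lists, by distance from the gene's start in kb; bars are peaks (NTKO pink, TKO green), vertical ticks are summits and the numbers over them are summit heights in reads, with the first exons of the GRCh37 transcript placed by their distance from its start. The main DLL4 summits of the 3 lists that have a peak line up. The TKO run 2 peaks are narrower than the main NTKO peaks, and CDCA7 has no peak in either TKO list.

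The main NTKO peaks covered the start of both genes and reached into the transcribed part. At DLL4 they began 1466 bases before the start in run 1 and 946 in run 2, and ended 1913 and 2540 bases after it. The main TKO run 2 peak began 85 bases after the start and ended 972 bases after it, so the stretch before the start, which both NTKO peaks included, was not called in TKO cells. At CDCA7 the NTKO peaks began 457 and 481 bases before the start and ended 1157 and 1653 bases after it.

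The summit stood at nearly the same base in each list that had a peak. The main DLL4 summits stood at 39009396 in NTKO run 1, 39009384 in NTKO run 2 and 39009388 in TKO run 2, a spread of 12 bases, some 554 to 566 bases after the start. The CDCA7 summits stood at 173928235 and 173928259, which is 24 bases apart and 435 to 459 bases after the start. Over all 2985 peaks paired between NTKO run 2 and TKO run 2, each the largest overlap of the other, the median distance between summits was 66 bases, and 6.3% of pairs were as close as the 4 bases at DLL4. Over 1939 pairs of the NTKO runs the median was 124 bases, with 8.2% as close as DLL4 and 15.1% as close as CDCA7. In the GENCODE annotation of GRCh37, bases 508 to 777 of the DLL4 transcript's span are exon 2 and bases 1 to 395 exon 1, so by its distance from the start the DLL4 summit falls in exon 2, which is coding sequence. CDCA7 exon 1 ends at base 113 and exon 2 begins at base 3841, so the CDCA7 summit falls in intron 1. The builds differ, and these places hold only as far as distances from the start are the same in hg18.

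The study's ChIP-qPCR at these genes measured H3K36me2 and H3K27me3, not EZH2, and its amplicons can be placed in GRCh37 from their primers, each pair matching at 1 place on the chromosome of its gene, the only one searched. The CDCA7 amplicon named for the start and the DLL4 amplicon have these primers, shown because they mark which part of each locus a qPCR would read.
CDCA7-TSS forward: tgaaatgagggggaaatgcg
CDCA7-TSS reverse: tgtgcgtgaagagcaaaacttg
DLL4 forward: tcactctgcctctctcttgttccc
DLL4 reverse: ttcaccctgactcaccttggtc

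The CDCA7-TSS amplicon (chr2:174218626-174218755) lies at -974 to -845 bases from the annotated start, farther out than the 457 and 481 bases that the NTKO peaks reached. The DLL4 amplicon (chr15:41224488-41224660) lies 2950 to 3122 bases after the start, past the 2540 bases that the longest NTKO peak reached. The other CDCA7 amplicons lie at -8827 to -8713 bases and at 29070 to 29212 bases from the start. By distance from the start the amplicons thus read stretches beside the EZH2 peaks, and they are no check of those peaks.

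Within its own list each start peak was above most others. A place in a list depends on which weak peaks that list holds, so percentiles of different lists are not compared. The DLL4 peak ranked 34 of 2972 peaks by height in NTKO run 1 and 43 of 10582 in NTKO run 2, at percentiles 98.9 and 99.6. In TKO run 2 it ranked 617 of 5516, at percentile 88.8. The CDCA7 peak ranked 248 in NTKO run 1 and 147 in NTKO run 2, at percentiles 91.7 and 98.6. DLL4 was thus the higher of the pair in both NTKO runs. The second peaks of DLL4 lay near the median of their lists, with 68 reads against 63 in NTKO run 2 and 72 against 65 in TKO run 2. The second peak of CDCA7, with 46 reads, was among the lowest of NTKO run 2, at percentile 8.76.

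**Figure D2:**
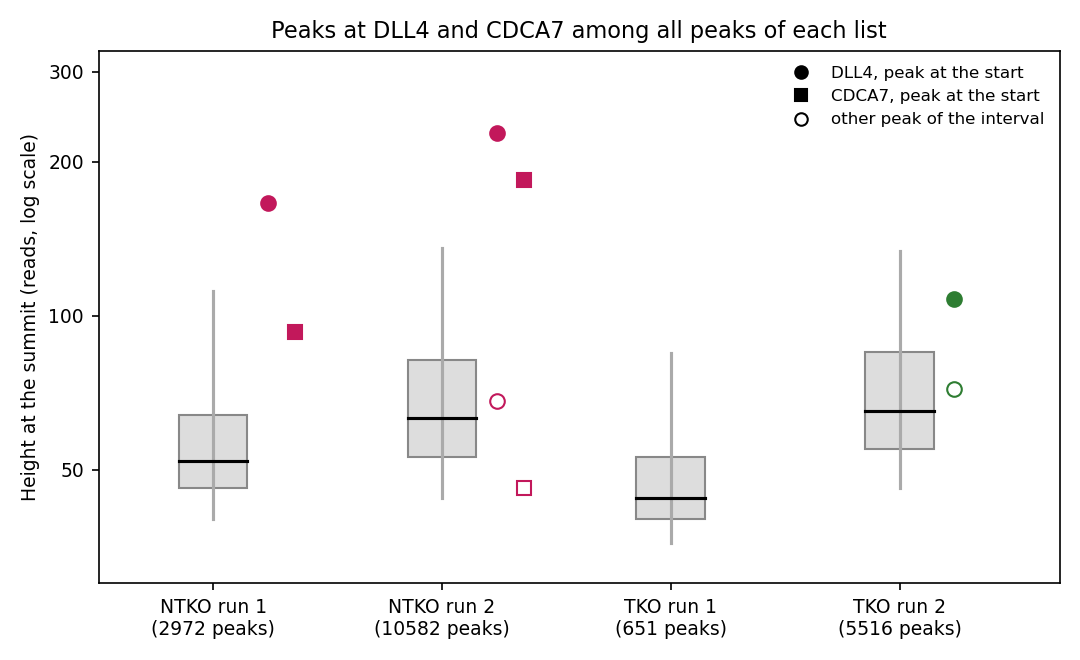
Summit heights (reads, log scale) of the peaks at DLL4 (circles) and CDCA7 (squares) beside all peaks of each list, where boxes span percentiles 25 to 75 with the median as a line and grey lines percentiles 5 to 95; filled symbols are the peaks at the start and open symbols the other peaks. DLL4 stands above the grey line in both NTKO runs and inside it in TKO run 2, and CDCA7 stands above it in NTKO run 2.

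In run 2, whose peaks the study carried into its later steps, the DLL4 peak was 228 reads high in NTKO cells and 108 in TKO cells, a log2 ratio of 1.08. The paired peaks of run 2 had a median log2 ratio of 0.25 and 73.3% of them were higher in NTKO cells, so the direction at DLL4 was the common one. The size was not, since 59 of the 2985 pairs (1.98%) had a ratio as large. The main peak was 3486 bases wide in NTKO cells and 887 in TKO cells, 3.93-fold (log2 1.97). Second peaks are not in this ratio, among them the TKO peak of 202 bases that lay inside the stretch of the main NTKO peak. The ratio thus depends on where the caller split the signal. Of the pairs, 80.4% were wider in NTKO cells and 19.5% were wider by as much. Between the NTKO runs the log2 height ratio of run 1 to run 2 was -0.46 at DLL4 (166 and 228 reads), against a median of -0.88 over all pairs of these runs. Over 411 pairs of the TKO runs the median log2 height ratio of run 1 to run 2 was -1.42. The median shift between runs was thus larger than the 1.08 at DLL4 in TKO cells and smaller in NTKO cells. Both the shifts between runs and the ratio within run 2 compare different lists, whose heights may not share 1 scale. The line difference at DLL4 has no replicate, since TKO run 1 had no peak to set against run 1 of NTKO cells.

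**Figure D3:**
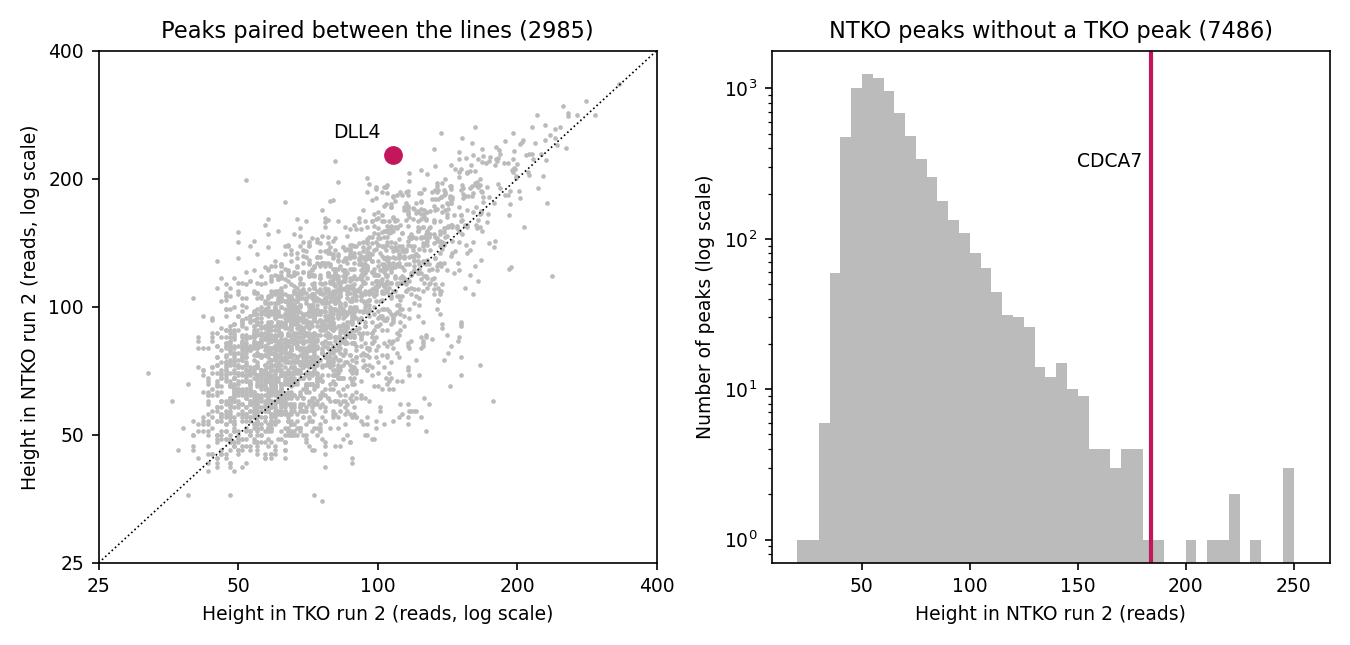
Left, summit heights in NTKO run 2 against TKO run 2 (reads, log scales) for 2985 paired peaks in grey, with DLL4 marked and a dotted line of equal height; right, the number of NTKO run 2 peaks without a TKO run 2 peak (7486, log scale) by height, with CDCA7 marked by a line. DLL4 lies above the line at 228 and 108 reads, and CDCA7 at 184 reads is in the sparse upper end of the NTKO-only peaks.

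Peaks that the 4 lists share were joined into regions to see how often the same pattern of presence arose. Of 1930 regions with a peak in both NTKO runs, 1016 (52.6%) had one in TKO run 2 and not in TKO run 1, as DLL4 did, and 557 (28.9%) had none in either TKO run, as CDCA7 did. Both patterns were thus common. The low second peak of CDCA7 was a region of its own that no other list held, as were 65.9% of the regions of NTKO run 2.

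Among regions at least as high in NTKO run 2, missing TKO peaks were less common. A peak in both NTKO runs and at least the run 2 height of DLL4 was found in 44 regions. Of these 44, 39 had a TKO run 2 peak, with a median height of 215 reads against 108 at DLL4. No TKO run 1 peak was found in 5 (11.4%), DLL4 among them. Of those 5, 3 had no TKO run 2 peak either, so the 11.4% is wider than the pattern of DLL4. Among the 1016 regions with its pattern, DLL4 was the highest in NTKO run 1 and 1 other was as high in NTKO run 2, while in TKO run 2 it stood at percentile 81.7. Among the 147 regions with a peak in both NTKO runs and at least the run 2 height of CDCA7, 135 had a TKO run 2 peak, with a median of 166 reads. CDCA7 was 1 of 7 (4.76%) with a peak in neither TKO list. Of the 557 regions with its pattern, 6 others were as high in NTKO run 2 and 13 in NTKO run 1. Among all 7486 NTKO run 2 peaks with no TKO run 2 peak, whose median was 58 reads, 12 reached its 184 reads, itself included. These shares are descriptions of the lists, and the thresholds were set by the genes' own heights. No region of either set was lower in NTKO run 2 than the gene that set the threshold. The TKO medians thus come from regions that are as high or higher in NTKO cells, and they are not a like comparison for the gene.

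The regions whose heights were nearest to those of DLL4, among regions of the same pattern, were chr1:61291079-61293229 in hg18 (146, 210 and 124 reads in NTKO run 1, NTKO run 2 and TKO run 2), chr11:818743-821805 (138, 191 and 104) and chr19:10261475-10264154 (126, 201 and 95). Their summed absolute differences from DLL4 over those 3 lists were 0.50, 0.58 and 0.76 on the log2 scale. Nearest to CDCA7 were chr1:155137354-155144044 (99 and 179 reads in the NTKO runs), chr5:10617511-10619272 (91 and 167) and chr11:43920935-43923072 (87 and 172), with differences of 0.13, 0.17 and 0.19 over 2 lists. No hg18 annotation was used here, so no gene was named for them, and other genes of the Notch pathway or partners of CDCA7 were not analysed here.

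The length of the DLL4 interval that peaks covered was 3379 and 4181 bases in NTKO runs 1 and 2, and 0 and 1089 bases in TKO runs 1 and 2. Both NTKO samples lay above both TKO samples, with 3780 ± 567 bases (SD, n = 2) against 544 ± 770 (SD, n = 2). The difference of 3236 bases was larger than either SD, and an exact permutation test gave a two-sided p of 0.333, the smallest that 2 samples against 2 allow. At CDCA7 the peaks covered 1614 and 2272 bases in the NTKO runs and 0 in both TKO runs, 1943 ± 465 bases (SD, n = 2) against 0, again without overlap of the lines (exact permutation test, two-sided, p = 0.333). Ranked by their highest peak, with lists without a peak lowest, both NTKO samples stood above both TKO samples at both genes (exact permutation test, two-sided, p = 0.333 for each). As a share of all the length that peaks of a list covered, DLL4 took 1642 and 532 ppm in NTKO runs 1 and 2 and 322 in TKO run 2, and CDCA7 took 784 and 289 in the NTKO runs. The lists differ in length, from 651 peaks in TKO run 1 to 10582 in NTKO run 2, and their part in these differences was not tested. NTKO run 1 held 2972 peaks and TKO run 2 held 5516.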

How the data were processed

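EZH2 ChIP-seq was measured in 2 samples each of NTKO and TKO cells, with inputs as controls. Reads were aligned by the authors to hg18 with BWA, reads at identical positions were dropped, each ChIP data set was normalized to its input lane, and ChIPseeqer called peaks per sample against input (2-fold, −log10 p of at least 15). The deposited lists give, as signal, the mean read level of a peak and the read height at its summit, and whether these carry the input normalization is not stated. The score column that the authors deposited is log10 of the peak's p-value, and 16 peaks with a p of 0 were ranked as strongest. A deposited percent column gives the place of the summit and was not used. The lists do not give library depth, and values carry no counting interval.

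Positions are as listed, and it is not stated whether they count from 0 or 1. The paper describes both samples of a line as independent biological replicates. The genes and tests were chosen with earlier results of these data known. The named items were DLL4, CDCA7, all their peaks and the 3 regions nearest in height. The start peak was the highest within 2 kb of the start. Regions joined peaks of any list that shared a base. Exact permutation tests compared 2 samples with 2. The overlap, pairing and permutation steps were tested on simulated data and returned the values put in. Computation used scipy 1.17.1, pandas 2.3.3, numpy 2.4.6, matplotlib 3.10.9 and Python 3.11.15. Promoters came from RefSeq (GRCh38.p14) and exons from GENCODE (GRCh37). Alternatives were a −log10 p of at least 20, 50% of a peak inside the interval, 2 kb windows, mean read level, width, scaling to the list, joining within 1 kb, leaving out a sample and pairing by run.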

Additional observations from a re-analysis of the deposited data

How the results depend on the processing

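Covered length and highest peak kept their direction at both genes, but several alternatives could not have changed it: neither TKO list has a peak at CDCA7, and a rank does not move when heights are not logged. As ppm of a list's covered length, the differences were 926 at DLL4 and 537 at CDCA7, a unit of its own judged by sign only. The log2 height ratio of run 2 at DLL4, 1.08, was 0.84 when centred on the regions in all 4 lists. It was 1.12 when centred on the list's median and 0.997 by mean read level. The number of peaks at DLL4, 0.5 more per list in NTKO cells, ranged from -0.5 to 1.5 when 1 sample was left out, and the negative value came without TKO replicate 1, so the number of peaks gives no direction at DLL4. The percentile of the start peak moved more. With peaks of −log10 p of at least 20 only, NTKO run 1 had DLL4 at 97.7 and CDCA7 at 82.5, while DLL4 stood at 82.3 in TKO run 2. Ordered by mean read level, DLL4 stood at 98.1, 98.6 and 71.2 in NTKO runs 1 and 2 and TKO run 2, and CDCA7 at 93.5 in NTKO run 2. Ordered by width, these were 97.7, 97.1, 81.5 and 93.1. Ordered by −log10 p, DLL4 stood at 84.9 in TKO run 2. The cause was not tested.

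With run as a replicate block the differences in covered length were 3235.5 bases at DLL4 and 1943 at CDCA7, with an exact sign-flip permutation p of 0.5, the smallest that 2 pairs allow. Over the 326 regions with a peak in all 4 lists, the log2 heights of same-numbered samples deviated together (r = 0.76 across regions, which are not replicates), and the labels do not say that a number marks a shared batch. The 651 peaks of TKO run 1 limit what its missing peaks can show.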
